A study of Mus musculus with 16 samples.

Results

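Toll-like receptors are the sensors with which macrophages detect microbial material, and Cd14 encodes a co-receptor that helps to hand lipopolysaccharide (LPS, from the outer membrane of Gram-negative bacteria) to one of them. The 10 genes described here, Tlr4, Cd14, Tlr2, Tlr1, Tlr6, Tlr3, Tlr7, Tlr8, Tlr9 and Tlr13, are the rows of the count table whose Ensembl identifiers carry these symbols, out of 43430 genes. RNA sequencing had been run on bone marrow-derived macrophages of C57BL/6J mice, grown out of marrow with macrophage colony-stimulating factor and then kept in MEM. The 4 groups were cells without serine treated with LPS at 100 ng/mL, cells in complete medium treated with the same dose of LPS, untreated cells without serine and untreated cells in complete medium, with 4 libraries each and RNA taken 4 h after LPS. No genotype other than the strain, no age and no length of the serine withdrawal is stated in the labels. The labels do not say whether replicates came from separate animals, so a p-value speaks only of the variation among these libraries. Replicate 1 differed in sex from the others (below), so its marrow had another source. Whether the variation among replicates 2 to 4 is technical is not known.

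Toll-like receptors at the cell surface recognise lipids and lipoproteins: TLR4 with its partner MD-2 binds LPS, and TLR2 pairs with TLR1 or TLR6 to bind bacterial lipopeptides. Those in endosomes recognise nucleic acids: TLR3 binds duplex RNA, TLR7 and human TLR8 bind single-stranded RNA and its breakdown products, TLR9 binds unmethylated CpG DNA and mouse TLR13 binds bacterial ribosomal RNA. All but TLR3 signal through the adaptor MyD88. TLR3 signals through TRIF (encoded by Ticam1) and TLR4 uses both adaptors.

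Total counts ranged from 6573849 to 7892215 in LPS-treated cells without serine, from 6240112 to 8092528 in LPS-treated cells with serine, from 2871477 to 10043362 in untreated cells without serine and from 5760734 to 7845261 in untreated cells with serine. Replicate 4 of the untreated cells without serine stood apart, with the lowest total, 12900 detected genes against 14000 to 16031 elsewhere and a 23.1% share of reads in its 20 most abundant genes, and is called the shallow library from here on. Xist was not counted in replicate 1 of any group, where Y-linked genes summed to 1184 to 2391 counts, and it had 351 to 1477 counts in each of the other 12 libraries, so replicate 1 differs from the rest in sex as well as in number. All 12 macrophage markers had counts in every group, and their sum lay between 17909 and 30732 CPM per library. The highest sum was that of the shallow library, where Lyz2 reached 22148 CPM, against 10031 to 16421 CPM in the other 15, while Csf1r, Cd68 and Itgam were at 2076, 492 and 265 CPM, against 2491 to 3434, 1066 to 1213 and 440 to 682 CPM in the others. Levels are counts scaled to the TMM-adjusted library size (CPM), changes are given as log2 fold changes with the SE of edgeR's quasi-likelihood fit, the Benjamini-Hochberg adjustment of p-values covers all 11004 genes tested, and a gene is called changed at an adjusted p under 0.05. All 10 genes passed the filter on low counts.

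Promoter windows, from 250 bases before to 50 after the annotated start, were found in the RefSeq table of build GRCm38.p6 for 7 of the 10 genes and not for Tlr4, Cd14 or Tlr7. The windows were searched on both strands for GGGA, any 4 bases and CC (a core of NF-kB sites), for GAAA, any 2 bases and GAAA (a core of interferon-stimulated response elements, ISRE) and for GAGGAA (a core of PU.1 sites), which occur in 20.7%, 3.44% and 28.3% of all 32851 windows of the table. The longest stretch of the window outside annotated exons is shown 5′ to 3′ on the gene's strand for 4 genes. They are the gene with the largest change with LPS (Tlr3) and the receptor gene with the highest level (Tlr2). Also shown are the gene with the rarest of the motifs in 1 of its 2 windows (Tlr6) and the one gene that was lower with LPS (Tlr13). Capitals mark the motif matches that lie whole in the stretch shown.
Tlr2, chr3:83841768-83841858, minus strand, NF-kB core: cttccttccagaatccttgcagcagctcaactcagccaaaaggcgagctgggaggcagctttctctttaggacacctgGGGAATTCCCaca
Tlr3, chr8:45410381-45410452, minus strand, NF-kB core: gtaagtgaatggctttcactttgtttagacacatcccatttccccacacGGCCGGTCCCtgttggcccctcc
Tlr6, chr5:64959117-64959416, minus strand, overlapping ISRE cores: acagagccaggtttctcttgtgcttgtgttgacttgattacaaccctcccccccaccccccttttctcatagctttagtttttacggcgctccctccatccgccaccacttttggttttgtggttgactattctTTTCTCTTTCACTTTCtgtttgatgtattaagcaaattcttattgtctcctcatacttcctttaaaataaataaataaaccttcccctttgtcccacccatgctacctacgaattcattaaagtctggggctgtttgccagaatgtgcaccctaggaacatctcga
Tlr13, chrX:106143025-106143203, plus strand, PU.1 core: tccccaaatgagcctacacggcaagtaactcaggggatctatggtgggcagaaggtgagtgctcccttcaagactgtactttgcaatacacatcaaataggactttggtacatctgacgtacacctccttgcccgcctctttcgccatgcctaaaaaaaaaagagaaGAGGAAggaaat
The Tlr6 stretch belongs to the one of its 2 annotated starts that lies inside the gene as the count table bounds it, and the window of the other start holds none of the motifs. The Tlr3 stretch also lies inside its gene, within the positions given below. The Tlr2 window holds 2 NF-kB cores and the Tlr3 window 3, and 1 of each lies whole in the stretch shown. The windows of Tlr8 and Tlr9 and 1 of the 2 windows of Tlr1 hold a PU.1 core and neither of the other motifs, and the other Tlr1 window holds none. A match is only a run of letters, not a shown binding site.

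The genes lie at 8 places in the mm10 build. Tlr4 is on chromosome 4 (66827584 to 66930284, plus strand), Tlr2 on chromosome 3 (83836272 to 83841767, minus strand), Tlr3 on chromosome 8 (45395665 to 45410608, minus strand) and Tlr9 on chromosome 9 (106222598 to 106226883, plus strand). Cd14 is on chromosome 18 (36725074 to 36726736, minus strand), and Tlr13 is on the X chromosome (106143204 to 106160493, plus strand). Tlr1 (64924811 to 64932761) and Tlr6 (64953106 to 64960048) are neighbours on the minus strand of chromosome 5, with a gap of 20.3 kb. Tlr7 (167304929 to 167330558) and Tlr8 (167242696 to 167264329) are neighbours on the minus strand of the X chromosome, with a gap of 40.6 kb. The Tlr1 and Tlr6 transcripts are near-copies over part of their length: 340 stretches of 75 bases, the read length, occur in both, which is 9.25% of those of Tlr6, and 351 of those of Tlr1 (10.6%) occur in another gene. Tlr3 overlaps an antisense gene, Gm45542, over 381 exonic bases, and because the kit is not strand-specific, reads from that stretch cannot be assigned to one of the pair. The other 7 genes share no such stretch with any annotated transcript.

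LPS moved most of these genes far, in both media. In medium without serine 8 of the 10 genes were called higher and 1 lower, where 27.1% of all genes tested were called higher and 29.7% lower (56.8% in either direction), and the replicate number as a block added Tlr9 to the higher ones. In medium with serine 6 were called higher and 1 lower, where 27.6% of all genes tested were called higher and 28.2% lower (55.8% in either direction). The median log2 fold change of the 10 genes was 2.10 without serine and 2.09 with serine, against -0.12 and -0.03 over all genes tested. Without the shallow library the counts were 8 higher and 1 lower in either medium, against 63.4% and 66.9% of all genes called without and with serine. The 2 LPS comparisons share no library.

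**Figure D1:**
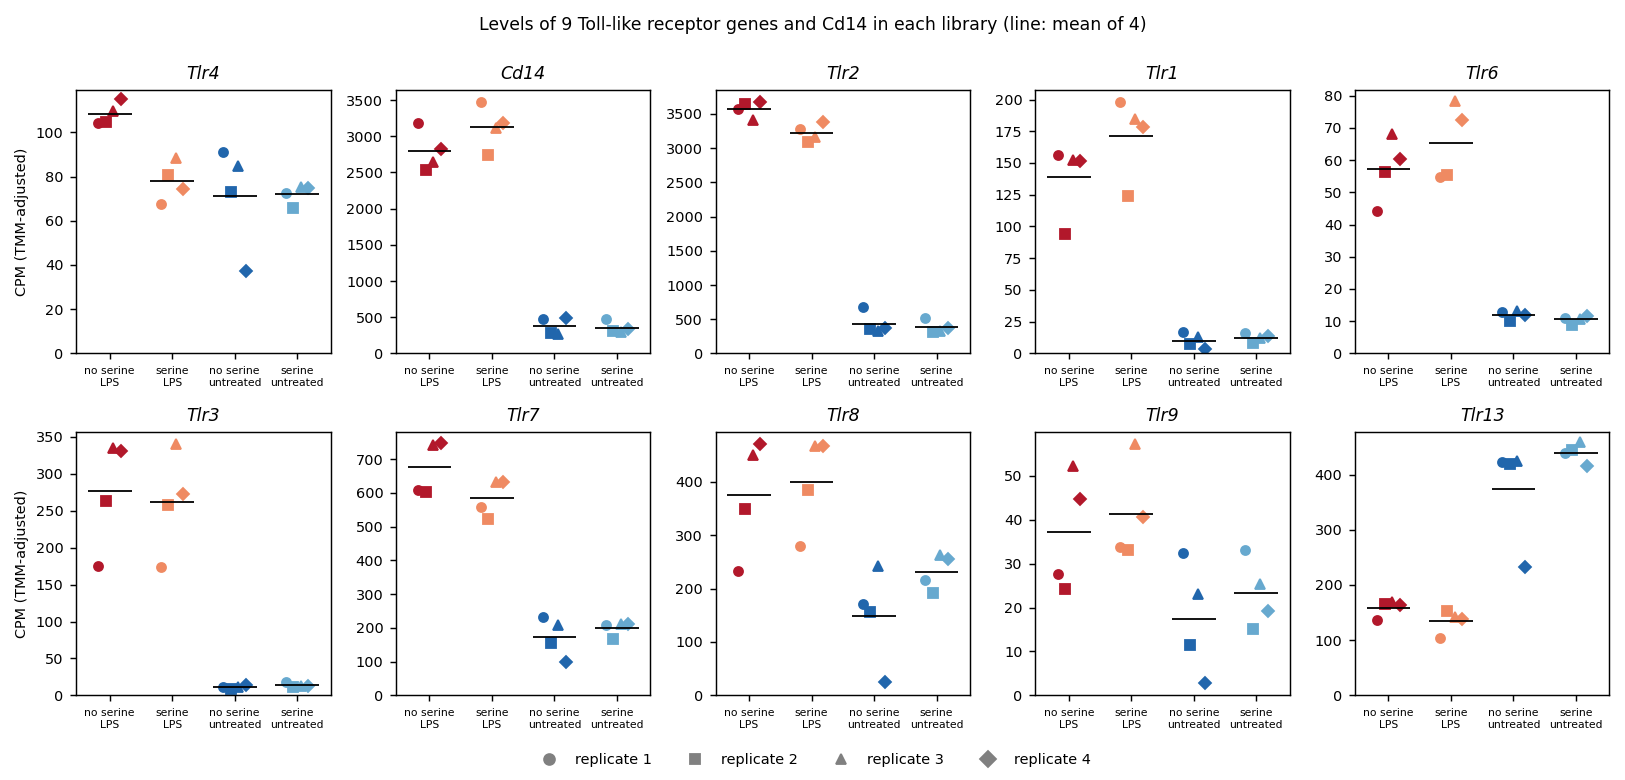
CPM (TMM-adjusted) of each gene in each library, by group, with 1 symbol per replicate number and a line at the mean of 4 libraries; each panel has its own axis from 0. Cd14, Tlr2, Tlr1, Tlr6, Tlr3 and Tlr7 are higher in every LPS-treated library than in any untreated one, Tlr13 is lower in every LPS-treated library, and the Tlr4 level stands highest in LPS-treated cells without serine.

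The LPS receptor gene itself, Tlr4, changed little. Without serine Tlr4 had 104, 105, 109.7 and 115 CPM in LPS-treated cells (replicates 1 to 4), against 90.9, 72.9, 84.8 and 37.1 CPM in untreated cells. With serine it had 67.6, 80.8, 88.2 and 74.4 CPM in LPS-treated cells, against 72.4, 65.8, 75.2 and 74.9 CPM in untreated cells. The 4 LPS-treated libraries without serine all lay above the other 12 libraries, while the groups with serine overlapped. The log2 fold change was 0.59 ± 0.19 (adjusted p = 0.0142) without serine and 0.11 ± 0.19 (adjusted p = 0.659) with serine (95% interval -0.29 to 0.51). The first value was 0.39 ± 0.10 (adjusted p = 0.00221) without the shallow library, which at 37.1 CPM was the lowest, and its call was lost when only the 2 groups were fitted (adjusted p = 0.0789). The direction depended on the scaling: scaled to total counts alone, Tlr4 was -0.01 ± 0.22 without serine and -0.51 ± 0.22 (adjusted p = 0.0467) with serine, and the median of all genes stood at -0.69 and -0.64 in place of -0.12 and -0.03. Relative to those medians Tlr4 lay higher in both media under either scaling, with serine by less than its SE.

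Cd14, the co-receptor that binds LPS at the cell surface and passes it to TLR4 and MD-2, had the highest level per kilobase of the 10 genes and was higher in every LPS-treated library than in any untreated one. Without serine it had 3187, 2533, 2651 and 2819.8 CPM in LPS-treated cells, against 475, 285, 274 and 485 CPM in untreated cells. With serine it had 3478, 2747, 3111 and 3186 CPM in LPS-treated cells, against 478, 316, 291 and 336 CPM in untreated cells. The groups did not overlap in either medium, and the log2 fold changes were 2.88 ± 0.21 (adjusted p = 6.49e-09) without and 3.14 ± 0.21 (adjusted p = 2.35e-09) with serine.

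The lipopeptide receptor genes rose together. Tlr2, the shared partner, had 3566, 3637, 3413 and 3679 CPM in LPS-treated cells without serine, against 679, 363, 331 and 369.7 CPM in untreated cells without serine. In medium with serine it had 3277, 3087, 3157 and 3384 CPM in LPS-treated cells, against 516, 317, 333 and 371 CPM in untreated cells. Its log2 fold changes were 3.04 ± 0.22 (adjusted p = 4.49e-09) without and 3.07 ± 0.22 (adjusted p = 3.57e-09) with serine. Tlr2 and Cd14 had the most alike profiles of any 2 of the 10 genes, with a root mean square difference of 0.23 (log2) over the 16 libraries after centring.

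Tlr1, which pairs with TLR2 to bind triacylated lipopeptides, had low levels in untreated cells. LPS-treated cells without serine had 156, 94.1, 153 and 151 CPM, against 16.6, 7.22, 12.95 and 3.37 CPM in untreated cells without serine. LPS-treated cells with serine had 198, 124, 184 and 178 CPM, against 15.9, 8.29, 12.4 and 13.4 CPM in untreated cells with serine. Replicate 2 was the lowest of both LPS-treated groups, and the log2 fold changes were 3.70 ± 0.33 (adjusted p = 7.52e-08) without and 3.78 ± 0.33 (adjusted p = 5.02e-08) with serine. Tlr6, which pairs with TLR2 to bind diacylated lipopeptides, is its neighbour. It had 44.1, 56.2, 68.2 and 60.2 CPM in LPS-treated cells without serine, against 12.99, 9.99, 13.1 and 11.8 CPM in untreated cells without serine. In medium with serine it had 54.8, 55.4, 78.3 and 72.4 CPM in LPS-treated cells, against 11.01, 8.91, 10.7 and 11.6 CPM in untreated cells. Its log2 fold changes were 2.25 ± 0.17 (adjusted p = 6.65e-09) and 2.63 ± 0.17 (adjusted p = 9.25e-10), and no test of Tlr1 against Tlr6 was made.

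Among the endosomal receptors, Tlr3 had the largest change of the 10 genes. In the absence of serine its level was 176, 264, 335 and 331 CPM in LPS-treated cells, against 11.9, 8.90, 11.03 and 13.8 CPM in untreated cells. In the presence of serine its level was 174, 257, 340.1 and 273 CPM in LPS-treated cells, against 17.9, 10.95, 12.6 and 12.9 CPM in untreated cells. Replicate 1 was the lowest library of both LPS-treated groups, and even so lay above every untreated library. The log2 fold changes were 4.62 ± 0.26 (adjusted p = 3.17e-10) without and 4.26 ± 0.26 (adjusted p = 4.97e-10) with serine. Conventional dendritic cells are known for Tlr3, and their 8 markers summed to 14.4 to 19.2 and 18.3 to 24.1 CPM in LPS-treated cells without and with serine, against 5.50 to 6.03 and 3.06 to 6.67 CPM in untreated cells without and with serine, with Cd209a at 0 in 3 of the 4 groups. The markers did not move together. Xcr1 was at 5.37 to 11.9 CPM in LPS-treated and 0.139 to 1.35 CPM in untreated libraries. Flt3 did not rise, at 0 to 0.508 CPM in LPS-treated and 0 to 1.09 CPM in untreated libraries. In bulk samples fewer cells of a type and less RNA per cell cannot be told apart, and the part of these cells in the Tlr3 result was not tested.

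Tlr7, the receptor for single-stranded RNA, rose in every pair of libraries. Without serine it had 608, 604, 741 and 748 CPM in LPS-treated cells, against 232, 156, 207 and 100.2 CPM in untreated cells. With serine it had 558, 521, 631 and 631 CPM in LPS-treated cells, against 209, 167, 209.9 and 212 CPM in untreated cells. The groups did not overlap in either medium, and the log2 fold changes were 1.95 ± 0.20 (adjusted p = 3.71e-07) without and 1.55 ± 0.20 (adjusted p = 4.31e-06) with serine.

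Its neighbour Tlr8 was more variable. In the absence of serine its level was 233, 350.1, 451 and 471 CPM in LPS-treated cells, against 171, 156, 242 and 24.6 CPM in untreated cells. In the presence of serine its level was 279, 385, 466 and 467 CPM in LPS-treated cells, against 217, 191, 263 and 256 CPM in untreated cells. The shallow library, at 24.6 CPM, was the lowest of the 16 by far, and replicate 1 was the lowest of both LPS-treated groups. The log2 fold change was 1.33 ± 0.42 (adjusted p = 0.0128) without serine, and 0.99 ± 0.24 (adjusted p = 0.00254) without the shallow library. It was 0.78 ± 0.42 (adjusted p = 0.122) with serine, not past the threshold although the groups did not overlap, and without that library, which is in neither group but in the fit that estimates the spread, the adjusted p was 0.00605 for a log2 fold change of 0.78 ± 0.22.

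Tlr9, the receptor for CpG DNA, was the receptor with the lowest or next to lowest level per kilobase in LPS-treated cells. LPS-treated cells without serine had 27.7, 24.3, 52.3 and 44.8 CPM, against 32.4, 11.5, 23.1 and 2.70 CPM in untreated cells without serine. LPS-treated cells with serine had 33.8, 33.2, 57.2 and 40.7 CPM, against 33.1, 15.2, 25.4 and 19.2 CPM in untreated cells with serine. Replicate 1 differed from the others, being lower with LPS than without it in medium without serine (-0.23 on the log2 scale, against 1.06, 1.17 and 3.92 in pairs 2 to 4). The log2 fold changes were 1.02 ± 0.44 (adjusted p = 0.0580) without and 0.83 ± 0.43 (adjusted p = 0.118) with serine. The value without serine was 0.72 ± 0.37 (adjusted p = 0.105) without the shallow library, where Tlr9 was at 2.70 CPM, and scaled to total counts alone the values were 0.40 and 0.20 (adjusted p 0.418 and 0.685) without and with serine. The value without serine passed with DESeq2 (1.10, adjusted p = 0.0377), with the replicate number as a block (1.10, adjusted p = 0.0254), with replicate 1 of the serine-free untreated group left out (1.48, adjusted p = 0.0103) and with replicate 2 of the serine-free LPS-treated group left out (1.18, adjusted p = 0.0452). The value with serine passed without the shallow library (0.82, adjusted p = 0.0473) and when only the 2 groups were fitted (0.81, adjusted p = 0.0187). Plasmacytoid dendritic cells are known for Tlr9. The 8 markers of plasmacytoid dendritic cells summed to 6.09 to 10.6 and 5.81 to 8.29 CPM in LPS-treated cells without and with serine, against 3.98 to 5.73 and 2.63 to 3.89 CPM in untreated cells without and with serine, with Klk1 at 0 in every group. Cox6a2 did not rise, at 1.19 to 2.95 CPM in LPS-treated and 1.41 to 4.72 CPM in untreated libraries. The part of these cells in the Tlr9 result was not tested.

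Tlr13, the receptor for bacterial ribosomal RNA, was the one gene that fell. Without serine it had 137, 166, 169 and 164 CPM in LPS-treated cells, against 424, 419, 425 and 232 CPM in untreated cells. With serine it had 103, 152, 142 and 138 CPM in LPS-treated cells, against 439.5, 444, 459 and 416 CPM in untreated cells. Every LPS-treated library lay below every untreated one, the shallow one included. The log2 fold changes were -1.24 ± 0.17 (adjusted p = 1.24e-05) without and -1.72 ± 0.17 (adjusted p = 3.15e-07) with serine, and the first was -1.41 without that library.

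**Figure D2:**
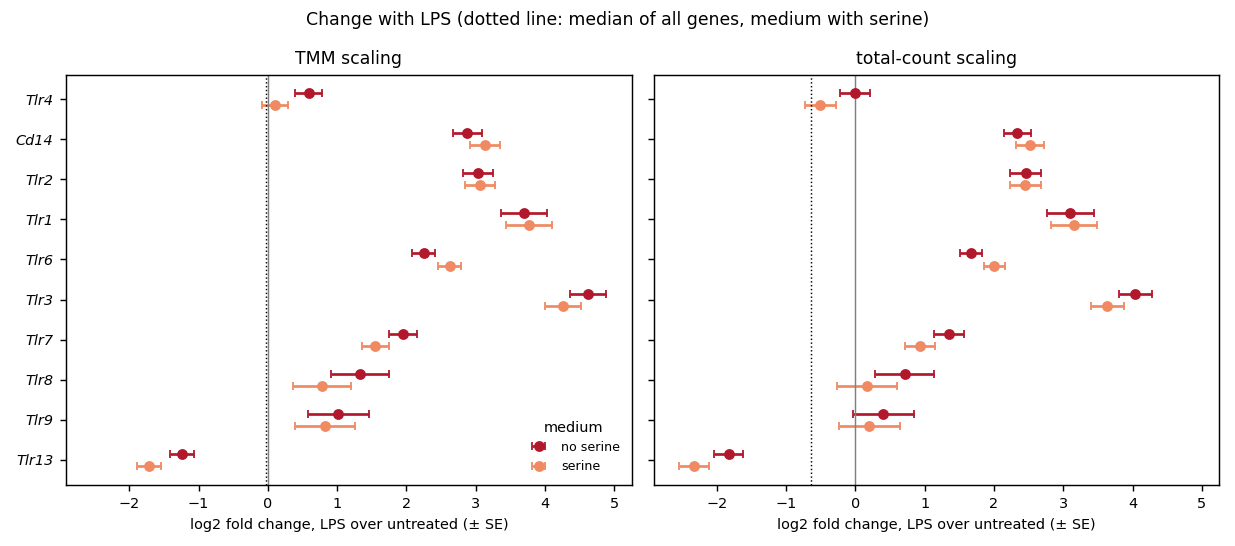
Log2 fold change ± SE of each gene with LPS over untreated cells, in medium without serine and with serine, from the model scaled by TMM (left) and by total counts alone (right); the dotted line is the median of all genes in medium with serine, at -0.03 and -0.64. Tlr3 stands highest at 4.62 and 4.26 under TMM, Tlr13 lies below 0 under either scaling, and Tlr4 is the one gene whose sign depends on the scaling.

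Across groups the CPM ranges of the LPS-treated and the untreated libraries were apart for 8 of the 10 genes without serine, where this held for 47.7% of all genes tested, and for 9 with serine, where it held for 61.6%. The genes that overlapped were Tlr8 and Tlr9 without serine and Tlr4 with serine. Replicate 1 was the lowest library of both LPS-treated groups for Tlr4, Tlr6, Tlr3, Tlr8 and Tlr13, and the highest of both for Cd14 and Tlr1. Since replicate 1 also differs in sex, its number and its sex cannot be told apart. The sum of the 10 neutrophil markers was 99.6 to 156 CPM in the 4 libraries of replicate 1, against 22.4 to 49.3 CPM in the other 12. S100a8, S100a9, Ngp, Camp and Ltf were highest in replicate 1 of every group. Mmp8 went the other way and was lowest in replicate 1 of every group. Elane, Mpo and Retnlg were near 0 throughout, and Ly6g was at 0 in all replicate 1 libraries. The part of neutrophils in the replicate 1 values of the 10 genes was not tested.

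Per kilobase of the gene length deposited with the counts, Cd14 and Tlr2 led in every group. The order of the genes depends on these lengths, which do not match the annotated transcripts for every gene. The deposited length of Tlr7 was 12152 bases, and its annotated transcripts hold 4284 distinct stretches of 75 bases. The same values were 7952 and 3651 for Tlr8 and 8282 and 5561 for Tlr3. They were 2652 and 3307 for Tlr1 and 2603 and 3677 for Tlr6. The order under other lengths was not tested. In untreated cells with serine Cd14 averaged 226 ± 53.3 and Tlr2 128 ± 30.02 CPM per kilobase (SD, n = 4). They were followed by Tlr13 at 105 ± 4.31, Tlr8 at 29.2 ± 4.28, Tlr7 at 16.4 ± 1.76 and Tlr4 at 10.2 ± 0.613 CPM per kilobase. Tlr9 at 6.68 ± 2.25, Tlr1 at 4.71 ± 1.19, Tlr6 at 4.05 ± 0.440 and Tlr3 at 1.64 ± 0.361 CPM per kilobase came last. Of the neighbours in this order, the ranges of Tlr2 and Tlr13, of Tlr4 and Tlr9, of Tlr9 and Tlr1 and of Tlr1 and Tlr6 overlapped. Without serine the untreated cells had the same first 7 genes in the same order, with Tlr13 at 89.7 ± 22.8 and Tlr8 at 18.6 ± 11.4 CPM per kilobase, and Tlr6 at 4.60 ± 0.553 CPM per kilobase stood before Tlr1 at 3.78 ± 2.22, whose ranges overlapped.

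The order was different in LPS-treated cells. Without serine Cd14 averaged 1779.6 ± 181 and Tlr2 1186 ± 38.9 CPM per kilobase, far above the other 8 genes. Tlr7 at 55.6 ± 6.59, Tlr1 at 52.3 ± 11.2, Tlr8 at 47.3 ± 13.8, Tlr13 at 38.05 ± 3.59, Tlr3 at 33.4 ± 9.001 and Tlr6 at 21.97 ± 3.85 CPM per kilobase followed, each overlapping the next, and Tlr4 at 15.3 ± 0.714 and Tlr9 at 10.7 ± 3.87, which also overlapped, came last. With serine Cd14 averaged 1991 ± 191, Tlr2 1070.4 ± 43.5, Tlr1 64.5 ± 12.2, Tlr8 50.2 ± 11.2, Tlr7 48.2 ± 4.51, Tlr13 32.03 ± 5.06, Tlr3 31.5 ± 8.23, Tlr6 25.1 ± 4.58, Tlr9 11.9 ± 3.23 and Tlr4 10.96 ± 1.25 CPM per kilobase. There the ranges of Tlr1, Tlr8 and Tlr7, those of Tlr13, Tlr3 and Tlr6, and those of Tlr9 and Tlr4 overlapped from one to the next. The other mouse receptors of the family were near 0. Tlr5, the flagellin receptor, had 1 to 6 counts per group of 4 libraries, Tlr11 had 1 to 8 and Tlr12 had 1 to 3, and none was tested.

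**Figure D3:**
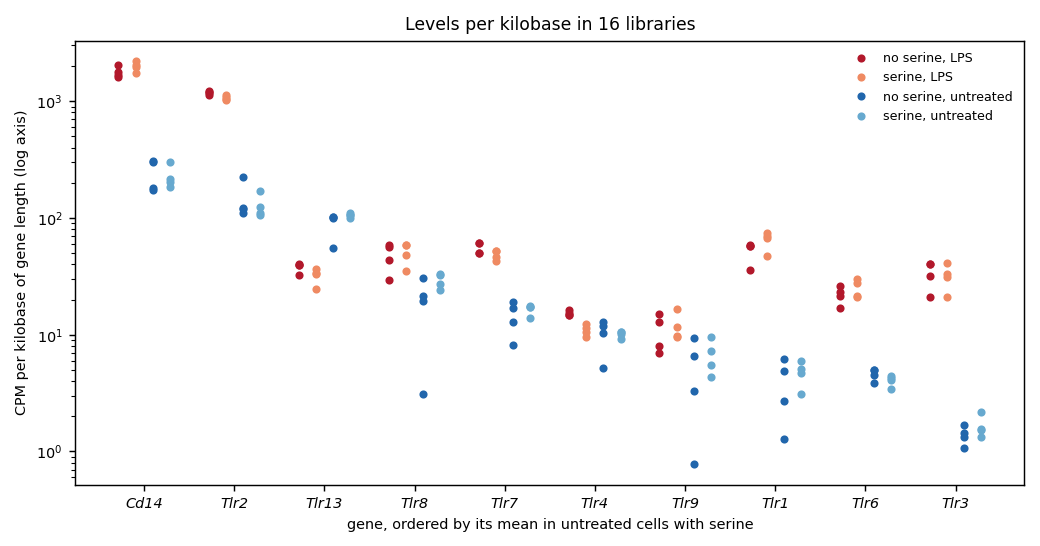
Level of each gene in CPM per kilobase of deposited gene length on a log axis, 1 point per library, 4 groups per gene. Genes are ordered by their mean in untreated cells with serine. Cd14 and Tlr2 lead in every group, and the order of the others differs between LPS-treated and untreated cells.

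The study also compared medium without and with serine, an amino acid that cells use for protein, one-carbon metabolism and glutathione. In LPS-treated cells none of the 10 genes was called changed by the withdrawal of serine, where 0.0636% of all genes tested were called. Tlr4 came closest. Its 4 libraries without serine, listed above, lay between 104 and 115 CPM, against 67.6 to 88.2 CPM in the 4 libraries with serine, so the groups did not overlap. The log2 fold change was 0.48 ± 0.19, with an unadjusted p of 0.0220 and an adjusted p of 0.608, and Tlr4 was higher in 4 of 4 pairs, by 0.63, 0.37, 0.31 and 0.63. Whether the call was made depended on how the spread was estimated. The adjusted p was 0.396 with the replicate number as a block, 0.0708 when only the 2 LPS-treated groups were fitted, and 0.0159 without the shallow library, which is in neither group, where 1.40% of all genes tested were called. With both the block and that library left out, a setting added after the data were seen, it was 0.00062, where 8.30% were called. The log2 fold change stayed between 0.42 and 0.55 in every alternative. The call was made in 2 of 24 alternatives, both without the shallow library, and the adjusted p reached 0.988 in another. In the authors' deposited table for this comparison Tlr4 has a log2 fold change of 0.476 and an adjusted p of 0.0163, and it is not among the genes they marked.

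The other 9 genes were less far from their counterparts. Tlr2 averaged 3574 ± 117 CPM without serine and 3226 ± 131 CPM with serine in LPS-treated cells (SD, n = 4 each), without overlap, for a log2 fold change of 0.15 ± 0.20. Groups did not overlap for 2 of the 10 genes, Tlr4 and Tlr2, both higher, where this held for 4.27% of all genes tested in that direction. Tlr1 was lower in 4 of 4 pairs, with log2 differences of -0.34, -0.40, -0.27 and -0.23, for a fitted -0.30 ± 0.29. With the block and without the shallow library it had an adjusted p of 0.00443, where 8.30% of all genes tested were called. That setting was added after the data were seen, and with the block alone the adjusted p was 0.777. Tlr1 passed in 1 of 24 alternatives. Cd14 was also lower in 4 of 4 pairs, with log2 differences of -0.13, -0.12, -0.23 and -0.18, for a fitted -0.16 ± 0.20. Tlr7 and Tlr13 were higher in 4 of 4 pairs, for fitted values of 0.21 ± 0.19 and 0.25 ± 0.17. The remaining values were -0.19 ± 0.15 for Tlr6, 0.08 ± 0.22 for Tlr3, -0.09 ± 0.41 for Tlr8 and -0.15 ± 0.43 for Tlr9. The 95% intervals were -0.58 to 0.25 for Cd14, -0.28 to 0.57 for Tlr2, -0.92 to 0.31 for Tlr1, -0.51 to 0.13 for Tlr6, -0.38 to 0.55 for Tlr3, -0.20 to 0.62 for Tlr7 and -0.11 to 0.61 for Tlr13, and wider, at -0.96 to 0.79 and -1.06 to 0.76, for Tlr8 and Tlr9.

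In untreated cells none of the 10 genes was called, and 0.00% of all genes tested were: edgeR called 0 genes (548 had an unadjusted p below 0.05), DESeq2 called 13 and the fit with the replicate block 9. Tlr4 averaged 71.4 ± 24.1 CPM without serine and 72.1 ± 4.35 CPM with serine (SD, n = 4 each), for a log2 fold change of 0.00 ± 0.19. Its pairs differed by 0.33, 0.15, 0.17 and -1.01. That split between replicate 4 and the others was shared by 5 further genes. In pair 4 the log2 difference was -1.90 for Tlr1, -1.08 for Tlr7, -3.36 for Tlr8, -2.71 for Tlr9 and -0.84 for Tlr13, while in pairs 1 to 3 the differences of these genes lay between -0.39 and 0.15. Cd14 went the other way in pair 4, at 0.53, and Tlr2, Tlr6 and Tlr3 were at -0.01, 0.03 and 0.09. Tlr8 had the lowest fitted value of the 10 genes, -0.64 ± 0.42 (adjusted p = 0.816), with a 95% interval of -1.52 to 0.25, and the intervals of the others reached from -1.27 (Tlr9) to 0.61 (Tlr2).

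**Figure D4:**
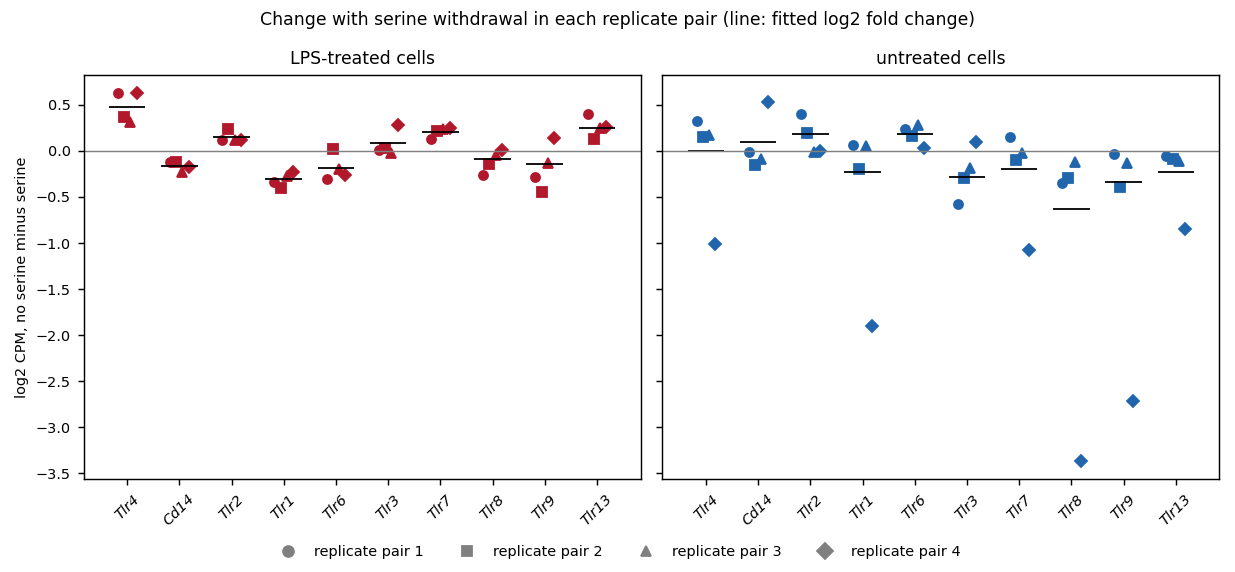
Difference in log2 CPM between the library without serine and the library with serine of the same replicate number, for LPS-treated cells (left) and untreated cells (right); the line is the fitted log2 fold change. In LPS-treated cells the 4 Tlr4 pairs all lie above 0, and in untreated cells pair 4 lies far below the others for Tlr4, Tlr1, Tlr7, Tlr8, Tlr9 and Tlr13.

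The change with serine withdrawal in LPS-treated cells minus that in untreated cells, which is also the change with LPS without serine minus that with serine, was called for none of the 10 genes, and 0.00% of all genes tested were called (0 by edgeR, 1 by DESeq2, and 253 with an unadjusted p below 0.05). The difference was 0.48 ± 0.27 (adjusted p = 0.950) for Tlr4, 0.48 ± 0.24 (adjusted p = 0.950) for Tlr13 and -0.38 ± 0.23 (adjusted p = 0.950) for Tlr6. For Tlr4, Tlr3, Tlr8 and Tlr13 it was above 0 in 4 of 4 replicate numbers, and for Tlr6 below 0 in 4 of 4. Replicate number 4 stood apart, at 1.64 for Tlr4, 3.38 for Tlr8 and 1.10 for Tlr13, and without the shallow library the fitted differences were 0.28 for Tlr4, 0.21 for Tlr8 (0.55 with it) and 0.31 for Tlr13.

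The partners of these receptors were described from lists of pathway genes. Among adaptors, the proteins that link receptors to kinases, 6 of the 6 tested were called higher with LPS in both media. Of all genes tested 27.1% were called higher without and 27.6% with serine. Myd88 averaged 427 ± 38.7 CPM in LPS-treated and 63.9 ± 11.6 CPM in untreated cells without serine, and 437 ± 36.3 CPM in LPS-treated and 69.9 ± 6.04 CPM in untreated cells with serine (SD, n = 4 each). Its log2 fold changes were 2.73 ± 0.14 without and 2.64 ± 0.14 with serine. Those of Ticam2, the TRAM adaptor that serves TLR4, were 1.94 ± 0.21 and 1.74 ± 0.21, those of Ticam1 were 0.76 ± 0.13 and 0.86 ± 0.13, and those of Tirap, which bridges TLR4 or TLR2 to MyD88, were 0.92 ± 0.14 and 0.78 ± 0.14. Scimp, a membrane adaptor of TLR4 signalling, had 43 and 57 counts over the LPS-treated groups without and with serine, against 2 and 0 counts over the untreated groups.

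Of 6 co-receptor and ligand-transfer genes tested 3 were called higher without serine and 2 with serine, where 27.1% and 27.6% of all genes were. Without the shallow library 4 were called higher with serine, where 33.1% of all genes were. Ly96, which encodes MD-2, rose by 0.84 ± 0.22 and 1.15 ± 0.22, and Cd180, which encodes a TLR4-like surface protein, by 1.13 ± 0.27 and 0.78 ± 0.27 without and with serine. Itgb2, an integrin subunit, was called in medium without serine alone, at 0.39 ± 0.14 (with serine 0.23 ± 0.14), and the difference between the media was called for no gene. Cd36, a scavenger receptor that assists TLR2 with TLR6, was at 0.18 ± 0.20 and 0.03 ± 0.20, not called. Lbp, the serum protein that carries LPS to CD14, had 22 to 28 counts per group and was not tested.

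Of 8 chaperones and trafficking factors of Toll-like receptors 2 were called higher and 4 lower in both media, where 27.1% and 27.6% of all genes were called higher and 29.7% and 28.2% lower without and with serine, so that the higher ones were near the share over all genes. Unc93b1, which carries nucleic-acid receptors to endosomes, was at 0.32 ± 0.16 without and 0.29 ± 0.16 with serine, not called except with the replicate block (adjusted p 0.00389 and 0.00689). Lrrc59 (1.36 ± 0.21 and 1.36 ± 0.21) and Ap3b1, a subunit of an endosomal sorting adaptor (1.04 ± 0.20 and 0.84 ± 0.20), rose. Rab7b, a small GTPase of late endosomes (-2.34 ± 0.18 and -2.21 ± 0.18), Cnpy4 (-1.48 ± 0.29 and -1.22 ± 0.29) and Cnpy3, a folding factor of several receptors (-1.02 ± 0.12 and -1.16 ± 0.12), fell. Of 10 proteases and nucleases that process the receptors or their ligands, 2 rose and 3 fell without serine and 2 rose and 1 fell with serine, counts near or below the shares over all genes, and without the shallow library 1 fell without serine. The lysosomal ribonuclease genes Rnaset2a (0.75 ± 0.23 and 1.20 ± 0.24) and Rnaset2b (1.11 ± 0.25 and 1.18 ± 0.24) rose, and these are close copies whose reads may be split between them. Dnase2a, the lysosomal DNase, fell (-1.28 ± 0.29 and -0.73 ± 0.29), and Lgmn (-0.52 ± 0.21) and Pld4 (-0.44 ± 0.15) fell in medium without serine.

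Of 19 signalling kinases and ligases 11 rose and 3 fell in both media, where 27.1% and 27.6% of all genes rose and 29.7% and 28.2% fell without and with serine. Peli1 (3.45 ± 0.18 and 3.63 ± 0.18 without and with serine), Rnf31 (2.63 ± 0.10 and 2.72 ± 0.10), a subunit of the linear ubiquitin ligase, and Ikbke (2.32 ± 0.21 and 2.51 ± 0.21), a kinase of the interferon branch, rose most. Tab1 (-1.32 ± 0.19 and -1.32 ± 0.19), Irak4 (-0.86 ± 0.13 and -0.89 ± 0.13), the first kinase recruited by MyD88, and Irak1 (-0.32 ± 0.10 and -0.37 ± 0.10) fell. Of 11 brakes on the pathway 6 rose and 3 fell in both media, against the same shares of all genes. Socs1 (6.11 ± 0.39 and 7.56 ± 0.41), Tnfaip3 (4.32 ± 0.27 and 4.55 ± 0.27), which encodes the ubiquitin-editing enzyme known as A20, and Irak3 (2.77 ± 0.15 and 2.88 ± 0.15) rose most, and Inpp5d, the phosphatase SHIP (-3.17 ± 0.15 and -3.37 ± 0.15), Cd300lf (-2.43 ± 0.34 and -2.61 ± 0.35) and Rnf128 (-0.83 ± 0.21 and -0.72 ± 0.21) fell.

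The medians of these lists, without and with serine, were 1.84 and 1.58 for adaptors, 0.39 and 0.43 for co-receptors, -0.28 and -0.23 for chaperones, -0.24 and -0.09 for proteases and nucleases, 0.76 and 0.62 for kinases and ligases, and 0.56 and 0.45 for brakes, against -0.12 and -0.03 over all genes. Scaled to total counts alone the counts without serine were 4 higher and 0 lower of 6 adaptors, 0 and 0 of 6 co-receptors, 1 and 5 of 8 chaperones, 1 and 8 of 10 proteases and nucleases, 7 and 6 of 19 kinases and ligases and 5 and 4 of 11 brakes. With serine they were 4 and 0, 1 and 1, 1 and 5, 2 and 8, 8 and 8 and 4 and 5 in the same order of lists. Over all genes tested, 15.3% were called higher and 59.7% lower without serine under this scaling, and 15.1% and 58.2% with serine. Of the genes named above from these lists Itgb2, Cd36 and Unc93b1 turned negative, at -0.20, -0.40 and -0.24 without serine and -0.38, -0.59 and -0.33 with serine. The replicate block, besides Unc93b1, added the calls of Ly86 with serine (higher, adjusted p = 0.00453) and, without serine, of Itgam, Tab3 and Tollip (higher, adjusted p 0.0498, 0.0224 and 0.0402) and Ctsk (lower, adjusted p = 0.0182), genes named here for that change. No gene of these lists was called in either serine withdrawal or in their difference, with or without the replicate block, over all 16 libraries. Without the shallow library 1 of the 8 chaperone and trafficking genes was called lower in the LPS-treated withdrawal. In that setting 0.396% of all genes tested were called lower.

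Genes with the profiles most like those of the receptors were found by the root mean square difference of centred log2 CPM over the 16 libraries, as a description. For Tlr4 they were Cep170, Arih1 and Abca1 (0.15, 0.15 and 0.16, against a median of 0.62 over all genes tested), and for Cd14 Apobec3, Ccl9 and Slfn2 (0.19, 0.20 and 0.21, against 1.61). For Tlr2 they included AI504432 and Aim2. For Tlr1 they were Pfkfb3, Dtx3l and 9930111J21Rik2, and for Tlr6 Aida, Slc15a3 and H2-T22. Those of these 3 genes lay at 0.14 to 0.32. For Tlr3 they were Tpst1, Tor3a and Gnb4, for Tlr7 Morc3, Frmd4a and Slc7a8, and for Tlr13 Man1c1, Rcan3 and Crat, at 0.10 to 0.27. Tlr8 was nearest to Wdfy2, Usp9x and Mppe1 (0.15, 0.30 and 0.31) and Tlr9 to Adap2, Atad2b and Pde4a (0.38, 0.40 and 0.42), so that Tlr9 had the least close companions. Among the 10 genes, Tlr8 and Tlr9 came after Cd14 and Tlr2 as the closest pair, at 0.38.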

How the data were processed

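Gene counts of 16 libraries were analysed; the members and the gene lists were chosen with earlier results of these data known. The authors deposited whole-number read counts per Ensembl gene, and the submitters' processing notes give mm10 as the build and name edgeR, HTSeq, STAR, SAMtools and Trimmomatic 0.33 without roles. The authors also deposited, in the same count table, other per-gene values such as gene length, and, in their comparison tables, log2 fold changes and adjusted p-values, quoted once here. Another 24 per-sample columns were left out of every step, and deposited FPKM values were not used.

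Counts were filtered with filterByExpr (11004 of 43430 genes), scaled by TMM and fitted in edgeR 4.0.16 (R 4.3.3) by the robust quasi-likelihood method with a mean per group over all 16 libraries. Tests are two-sided, with Benjamini-Hochberg adjustment over all genes tested and a threshold of 0.05. The common dispersion was 0.0438. The procedure was tested on simulated data. Log2 levels use a prior count of 2. TMM factors were 0.781 to 0.861 in LPS-treated libraries and 1.03 to 1.27 in untreated ones, so LPS changes depend on the scaling. No library was a copy of another (120 pairs compared).

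Deviations from group means correlated between same-numbered libraries at 0.125 to 0.660 in each of the 4 comparisons of 2 groups, every pair over 0.1, so the replicate numbers pair the samples, and the block for them is given where it changes a call. Log2 fold changes, SEs, intervals and shares are from the fit without the block unless stated. With the block 0.891% of all genes tested were called in the LPS-treated withdrawal, against 0.0636% without it. Alternatives were DESeq2 1.42.0 (size factors and Wald test), total-count scaling, no filter, a stricter filter, only the 2 groups compared, the replicate block and each library left out. Named genes were the 10 members, 11 fixed partners, up to 3 called genes per list, direction and comparison with the largest change, and the 3 most alike genes of each member, of which 1 is not reported here.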

Additional observations from a re-analysis of the deposited data

Results flagged for a closer look

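In 5 of the 40 sets of 4 libraries (10 genes in 4 groups) 1 library lay far from the other 3, by the gap to its nearest neighbour over the whole range; about 1 in 20 sets would do so by chance. Tlr13 was at 232 CPM in replicate 4 of the untreated cells without serine, against 419 to 425 CPM in the other 3 libraries. Tlr13 was at 137 CPM in replicate 1 of the LPS-treated cells without serine, against 164 to 169 CPM. Tlr1 was at 94.1 CPM in replicate 2 of the LPS-treated cells without serine, against 151 to 156 CPM. Tlr2 was at 679 CPM in replicate 1 of the untreated cells without serine, against 331 to 369.7 CPM. Tlr7 was at 167 CPM in replicate 2 of the untreated cells with serine, against 209 to 212 CPM. No gene of the 10 had a called difference between the changes in LPS-treated and untreated cells.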

How the results depend on the processing

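Over all alternatives the LPS results of Cd14, Tlr2, Tlr1, Tlr6, Tlr3, Tlr7 and Tlr13 kept their direction and their side of the threshold in both media. Total-count scaling turned Tlr4 to -0.51 with serine and -0.0073 without serine (LPS over untreated), to -0.037 in the untreated withdrawal, and turned the difference for Tlr2 to 0.0084; it also took Tlr8 without serine to 0.71 (adjusted p = 0.145). It lowered the share of higher calls with LPS to 20.4% and 20.6% without and with serine, against 47.7% and 49.5% under TMM. Fitting only the 2 groups compared lost Tlr4 and Tlr8 without serine (adjusted p 0.0789 and 0.0682) and added Tlr8 and Tlr9 with serine. For Tlr4 in the untreated withdrawal, at 0.00, the sign also turned without the filter (-0.015), with only the 2 groups (-0.0037) and with the replicate block (-0.019), and leaving out each library in turn gave -0.13 to 0.20. With the replicate block and without the shallow library, Cd14 and Tlr7 in the untreated withdrawal were -0.062 and 0.027, and the difference for Tlr9 was -0.11. Leaving out each library also turned values near 0: in the untreated withdrawal Cd14 (-0.044 to 0.27) and Tlr2 (-0.12 to 0.36), in the LPS-treated withdrawal Tlr3 (-0.071 to 0.24), Tlr8 (-0.22 to 0.078) and Tlr9 (-0.36 to 0.053), and in the difference Tlr1 (-0.29 to 0.27), Tlr2 (-0.21 to 0.27) and Tlr9 (-0.10 to 0.66). The cause of these turns was not tested.

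Genes called in the untreated withdrawal numbered 0, and 2 without the filter, 13 with DESeq2, 9 with the replicate block and 79 with the block and without the shallow library. In the LPS-treated withdrawal they numbered 7, and 0 with total-count scaling, 4 without the filter, 105 with DESeq2, 35 with only the 2 groups, 98 with the block, 0 to 156 leaving out each library (156 without the shallow library) and 922 with the block and without that library. Members called there numbered 0, 0 to 1 leaving out each library (Tlr4) and 2 with the block and without that library (Tlr4 and Tlr1). The difference between the withdrawals gave 0, and 1 with DESeq2 and 8 with the block and without that library. The block otherwise added the call of Tlr9 with LPS without serine and changed no other call of the 10 genes.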

Other observations

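Pattern recognition receptors outside the Toll-like family, which detect cytoplasmic nucleic acids, cell wall fragments or fungal sugars, mostly rose with LPS. Of 13 such genes 10 were called higher and 2 lower without serine, and 11 higher and 2 lower with serine, where 27.1% and 27.6% of all genes tested were called higher and 29.7% and 28.2% lower without and with serine, and the median log2 fold change was 3.95 without and 3.74 with serine. Nod2, a sensor of bacterial muramyl dipeptide, rose by 5.69 ± 0.30 without and 5.21 ± 0.28 with serine, Ifih1, the RNA sensor MDA5, by 5.62 ± 0.32 and 5.49 ± 0.32, and Nod1 by 5.45 ± 0.26 and 5.60 ± 0.26 (edgeR). Mavs, the mitochondrial adaptor of the RNA sensors, fell by 1.55 ± 0.13 and 1.48 ± 0.13, and Tmem173, which encodes the adaptor STING, fell by 0.55 ± 0.12 and 0.82 ± 0.12 without and with serine. Scaled to total counts alone 9 were higher and 2 lower without serine and 10 and 2 with serine. Under that scaling 15.3% of all genes tested were called higher and 59.7% lower without serine, and 15.1% and 58.2% with serine. The replicate block added the call of Clec7a without serine (higher, adjusted p = 0.0106). No gene of the list was called in either serine withdrawal.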
